A study of Mus musculus with 8 samples.

Results

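Macrophages, the large phagocytes of the myeloid lineage, are usually recognised by a small set of transcripts. This report follows 9 of them, Csf1r, Mrc1, Emr1, Mpeg1, Cd68, C1qa, C1qb, C1qc and Gpnmb, in mouse granulocyte-macrophage progenitors. The 9 genes were chosen by name as macrophage identity genes. All 9 were found among the 34199 genes of each count table, and 7 of them had enough counts to be tested.

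The cells were iGMPs, C57Bl/6 progenitors immortalised by HOXA9 fused to an estrogen receptor domain (HOXA9-ER), which carry a Lysozyme-GFP reporter (Lys-GFP) and grow in RPMI with SCF-conditioned medium from CHO cells. RNA-seq was deposited for 8 libraries, 2 in each of 4 groups. Uninduced cells were taken at 0 h in 150 ng/ml estradiol, which keeps HOXA9-ER active. CAF-1 OFF cells had 500 µM IPTG for 48 h in the presence of estradiol, which switches on a short hairpin RNA against Chaf1b, a subunit of the histone chaperone CAF-1, in lines derived from single clones. The IPTG-treated control had IPTG and estradiol for 48 h, and its labels give neither the IPTG concentration nor the vector. HOXA9 OFF cells were kept for 48 h without estradiol. Total gene counts were between 14044284 and 22423837 per library.

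Csf1r encodes the receptor for the growth factors CSF1 and IL34, which macrophages need to survive and mature. Mrc1 (the mannose receptor, CD206) takes up sugar-bearing ligands, and Emr1 (F4/80) is an adhesion receptor widely used as a mouse macrophage marker. Mpeg1 encodes perforin-2, a pore-forming protein that acts on engulfed bacteria. Cd68 and Gpnmb encode glycoproteins of late endosomes and lysosomes. C1qa, C1qb and C1qc encode the A, B and C chains of C1q, which starts the classical complement pathway and which tissue macrophages secrete. None of these genes belongs to macrophages alone: monocytes carry Csf1r and Mpeg1, and mouse eosinophils carry Emr1.

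Promoters are shown for 4 members, because the RNA levels below fall into 2 patterns: Mpeg1 was high in both HOXA9 OFF libraries, whereas C1qb, Gpnmb and Cd68 were far higher in replicate 2. Each window is the 250 bases before the RefSeq start of the gene (RefSeq, GRCm38.p6), found once in mm9 by exact match. RefSeq windows were matched for 6 of the 9 members. Capitals mark exact matches, on either strand, to any of 7 short motifs.
C1qb, chr4:136442116-136442365 (mm9, minus strand): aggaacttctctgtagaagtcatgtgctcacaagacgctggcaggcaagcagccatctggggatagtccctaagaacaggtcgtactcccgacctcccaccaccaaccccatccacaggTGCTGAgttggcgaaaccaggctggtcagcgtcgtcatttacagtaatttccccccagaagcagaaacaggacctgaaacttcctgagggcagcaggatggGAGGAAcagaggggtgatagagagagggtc
Gpnmb, chr6:48986267-48986516 (mm9, plus strand): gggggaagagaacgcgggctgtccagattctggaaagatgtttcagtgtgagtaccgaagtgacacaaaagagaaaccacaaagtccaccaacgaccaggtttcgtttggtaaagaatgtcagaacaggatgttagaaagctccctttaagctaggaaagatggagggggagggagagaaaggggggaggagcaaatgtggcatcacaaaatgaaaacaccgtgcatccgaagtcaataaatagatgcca
Cd68, chr11:69479673-69479922 (mm9, minus strand): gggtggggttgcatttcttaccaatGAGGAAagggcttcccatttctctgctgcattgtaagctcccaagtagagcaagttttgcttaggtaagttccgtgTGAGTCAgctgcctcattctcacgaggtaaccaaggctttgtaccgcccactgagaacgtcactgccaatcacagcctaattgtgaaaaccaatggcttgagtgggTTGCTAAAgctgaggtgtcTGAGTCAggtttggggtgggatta
Mpeg1, chr19:12535010-12535259 (mm9, plus strand): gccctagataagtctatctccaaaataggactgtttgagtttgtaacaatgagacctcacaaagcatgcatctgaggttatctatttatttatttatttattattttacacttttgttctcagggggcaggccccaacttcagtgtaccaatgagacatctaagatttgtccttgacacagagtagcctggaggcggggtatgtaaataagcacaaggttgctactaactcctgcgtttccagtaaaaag

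The motifs searched were the core of the PU.1 (ETS family) site, GAGGAA, the C/EBP pair TTGCNNAA, the IRF core GAAANNGAA, the E-box CACGTG bound by MITF and its relatives, the AP-1 site TGANTCA, the MAF half-site TGCTGA and the TATA box TATAAA. The PU.1 core was found in the C1qb, Cd68, C1qc and Mrc1 windows, with 3 matches in that of Mrc1. It was present in 23.3% of 32817 mouse RefSeq windows of the same length. Cd68 also held 2 AP-1 matches and 1 C/EBP match, which were present in 6.8% and 9.6% of all windows. The MAF half-site, present in 16.1% of windows, had 1 match in C1qb. Neither the Gpnmb nor the Mpeg1 window held any of the 7 sets of letters. No member window held the IRF core, the E-box or the TATA box, which occurred in 7.1%, 6.0% and 12.4% of all windows.

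Levels are given as CPM, read counts scaled to a common depth by the TMM-normalized library size. A gene was called where the adjusted p (FDR) of edgeR's quasi-likelihood test over all 13080 tested genes was under 0.05 and the change was at least 1.5-fold. The labels do not say whether same-group libraries came from separate cultures, so the p-values measure only the spread between these libraries. A supplement of the study speaks of sub-clones behind its RNA-seq tracks, without tying a clone to a replicate number. In bulk RNA, fewer cells of a type and less RNA per cell cannot be told apart. Among all genes, the 2 HOXA9 OFF libraries differed most from each other, with a chi-square of 84.5 per degree of freedom against 17.9 to 25.7 in the other groups. For that reason the HOXA9 OFF results of Csf1r, Emr1, Mpeg1, Cd68 and Gpnmb are also given without each of these libraries. Those of Mrc1 and C1qb are given without replicate 2, and the gene lists are given with both libraries. The target of the hairpin behaved as its label says: the uninduced libraries held Chaf1b at 96.8 and 100.3 CPM, and the CAF-1 OFF libraries at 18.7 and 9.72 CPM (log2 fold change −2.79 ± 0.27 SE, FDR 0.00236 by edgeR). Chaf1b was also called lower in HOXA9 OFF, at 48.3 and 41.0 CPM (log2 fold change −1.14 ± 0.25 SE, FDR 0.00574 by edgeR). Removal of estradiol acts on the HOXA9-ER protein, so the Hoxa9 transcript, at 235 ± 0.25 CPM in uninduced and 465 ± 22.3 CPM in HOXA9 OFF (SD, n = 2), does not check that label.

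**Figure D1:**
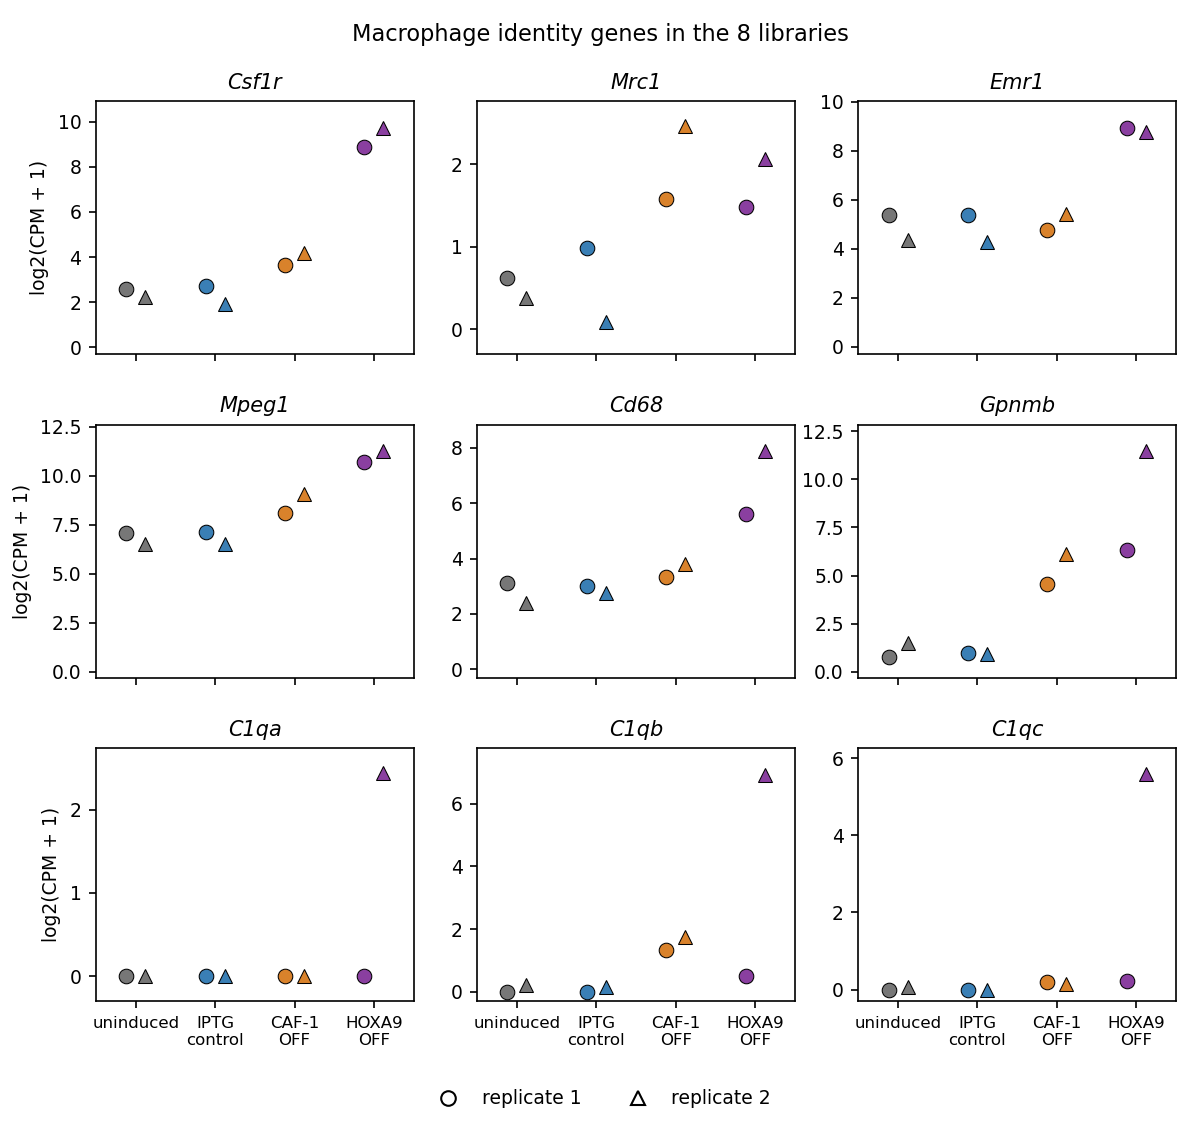
Level of each of the 9 macrophage identity genes as log2(CPM + 1) in the 8 libraries, with circles for replicate 1, triangles for replicate 2, 1 color per group and a separate vertical scale in each panel. Csf1r, Emr1 and Mpeg1 are high in both HOXA9 OFF libraries, whereas the C1q chains are high in replicate 2 of HOXA9 OFF, where C1qb reaches 6.93 against 0.52 in replicate 1.

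Csf1r, the receptor gene on the plus strand of chromosome 18, was low in the progenitors. The uninduced libraries gave 5.07 and 3.72 CPM, the IPTG-treated control 5.65 and 2.76 CPM, CAF-1 OFF 11.5 and 17.0 CPM, and HOXA9 OFF 465 and 853 CPM. The 3 levels did not overlap: both CAF-1 OFF libraries lay above all 4 control libraries, and both HOXA9 OFF libraries lay far above CAF-1 OFF. Csf1r rose 150-fold in HOXA9 OFF against uninduced (log2 fold change 7.23 ± 0.46 SE, FDR 2.02e-05 by edgeR) and 3.24-fold in CAF-1 OFF (1.69 ± 0.41, FDR 0.0266). Exons of Csf1r overlap Hmgxb3 on the opposite strand, and 822 of 4652 windows of 50 bases in the longest Csf1r transcript also lie in that gene. The use of strand in counting is not stated, so some reads there may have been left out or shared.

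The pair of uptake and adhesion receptors behaved differently from each other. Emr1 (mm9, chr17:57498109-57622952, plus strand) measured 40.6 and 19.2 CPM before induction, 40.9 and 18.3 CPM with IPTG alone, 26.3 and 42.6 CPM after CAF-1 suppression, and 494 and 436 CPM after withdrawal of estradiol. The CAF-1 OFF values lay inside or just above the control range, and only the HOXA9 OFF libraries stood apart. Emr1 rose 15.6-fold in HOXA9 OFF (log2 fold change 3.96 ± 0.48 SE, FDR 0.00029 by edgeR), with the least spread between those 2 libraries of any tested member. Its fitted change in CAF-1 OFF was 0.20 ± 0.44 on the log2 scale (FDR 0.772).

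Mrc1 (mm9, chr2:14151041-14253684, plus strand) stayed low throughout, with 12 and 7 counts in uninduced cells, 14 and 1 in the IPTG-treated control, 38 and 87 in CAF-1 OFF, and 33 and 64 in HOXA9 OFF. In CPM these were 0.534 and 0.299, 0.989 and 0.0613, 2.00 and 4.55, and 1.79 and 3.17. Mrc1 was the only tested member whose CAF-1 OFF and HOXA9 OFF libraries overlapped without a call between them (log2 difference 0.40 ± 0.78, FDR 0.695 by edgeR). Against uninduced cells it rose in HOXA9 OFF (2.56 ± 0.89, FDR 0.0391) and missed the threshold in CAF-1 OFF (2.96 ± 0.89, FDR 0.0524). The HOXA9 OFF call was lost without HOXA9 OFF replicate 2 (FDR 0.125), either uninduced library (FDR 0.104 and 0.18) or either CAF-1 OFF library (FDR 0.052 and 0.0547).

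Mpeg1, the perforin-2 gene (mm9, chr19:12535269-12539774, plus strand), had the highest level of the members in progenitors, also per kilobase of exon. Its uninduced libraries gave 133 and 91.6 CPM, the IPTG-treated control 139 and 90.5 CPM, CAF-1 OFF 276 and 534 CPM, and HOXA9 OFF 1667 and 2437 CPM. As for Csf1r, the control, CAF-1 OFF and HOXA9 OFF libraries formed 3 steps with no overlap. Mpeg1 rose 18.2-fold in HOXA9 OFF (log2 fold change 4.19 ± 0.41 SE, FDR 0.000105 by edgeR) and 3.6-fold in CAF-1 OFF (1.85 ± 0.37, FDR 0.0167).

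Cd68 (mm9, chr11:69477715-69479655, minus strand) measured 7.61 and 4.28 CPM before induction, 6.995 and 5.77 CPM with IPTG alone, 9.16 and 12.9 CPM after CAF-1 suppression, and 47.3 and 234 CPM after withdrawal of estradiol. Both HOXA9 OFF libraries were above all others, but replicate 2 was 4.96 times replicate 1. Cd68 rose in HOXA9 OFF (log2 fold change 4.57 ± 0.73 SE, FDR 0.00118 by edgeR). In CAF-1 OFF both libraries lay above the controls, with a fitted change of 0.89 ± 0.69 (FDR 0.383).

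Gpnmb, the lysosomal glycoprotein gene (mm9, chr6:48986517-49020928, plus strand), covered the widest range of the tested members. Uninduced libraries gave 0.712 and 1.80 CPM, the IPTG-treated control 0.989 and 0.92 CPM, CAF-1 OFF 22.5 and 69.1 CPM, and HOXA9 OFF 78.8 and 2792 CPM. The steps did not overlap, yet HOXA9 OFF replicate 1 was closer to CAF-1 OFF replicate 2 than to its own partner. Gpnmb rose in HOXA9 OFF (log2 fold change 10.14 ± 1.87 SE, FDR 0.00236 by edgeR). In CAF-1 OFF the fitted change was 5.17 ± 1.65, or 36.1-fold, with an FDR of 0.0617.

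The C1q chains, which lie side by side within 18675 bases on the minus strand of chromosome 4, had at most 4 counts each in any control library. C1qb (mm9, chr4:136436044-136442102) had 0 and 4 counts in uninduced cells, 0 and 2 in the IPTG-treated control, 29 and 45 in CAF-1 OFF, and 8 and 2436 in HOXA9 OFF. C1qc (chr4:136445719-136448980) had 0 and 1, 0 and 0, 3 and 2, and 3 and 946 counts in the same order. C1qa (chr4:136451832-136454718) had 89 counts in HOXA9 OFF replicate 2 and 0 in the other 7 libraries. A count of 0 allows up to 3 counts, or 0.134 CPM in the smaller uninduced library, 0.212 CPM in that of the IPTG-treated control and 0.158 CPM in that of CAF-1 OFF, limits that cover counting error only. HOXA9 OFF replicate 2 therefore held all 3 chains, and HOXA9 OFF replicate 1 held fewer C1qb reads than either CAF-1 OFF library.

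Only C1qb passed the filter on low counts, and it rose in HOXA9 OFF (log2 fold change 9.34 ± 2.46 SE, FDR 0.0129 by edgeR). Without HOXA9 OFF replicate 2 the change was 2.24 with an FDR of 0.188, and the call was also lost without either uninduced library (FDR 0.0881 and 0.0717). Against 3 counts in the smaller uninduced library, C1qa was at least 33.1-fold and C1qc at least 351-fold higher in HOXA9 OFF replicate 2. In CAF-1 OFF, C1qb was at 1.53 and 2.35 CPM, with a fitted change of 4.38 ± 2.74 (FDR 0.288).

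Per kilobase of exon, the chains of HOXA9 OFF replicate 2 were unequal. C1qb made up 79.5% of their summed CPM per kilobase, C1qc 17.4% and C1qa 3.0%. In that library C1qb was at 111 CPM per kilobase, C1qc at 24.3 and C1qa at 4.24. With the length of the longest transcript in place of all annotated exons, C1qc was at 39.0 CPM per kilobase, and the shares became 72.0% for C1qb, 25.3% for C1qc and 2.8% for C1qa.

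**Figure D2:**
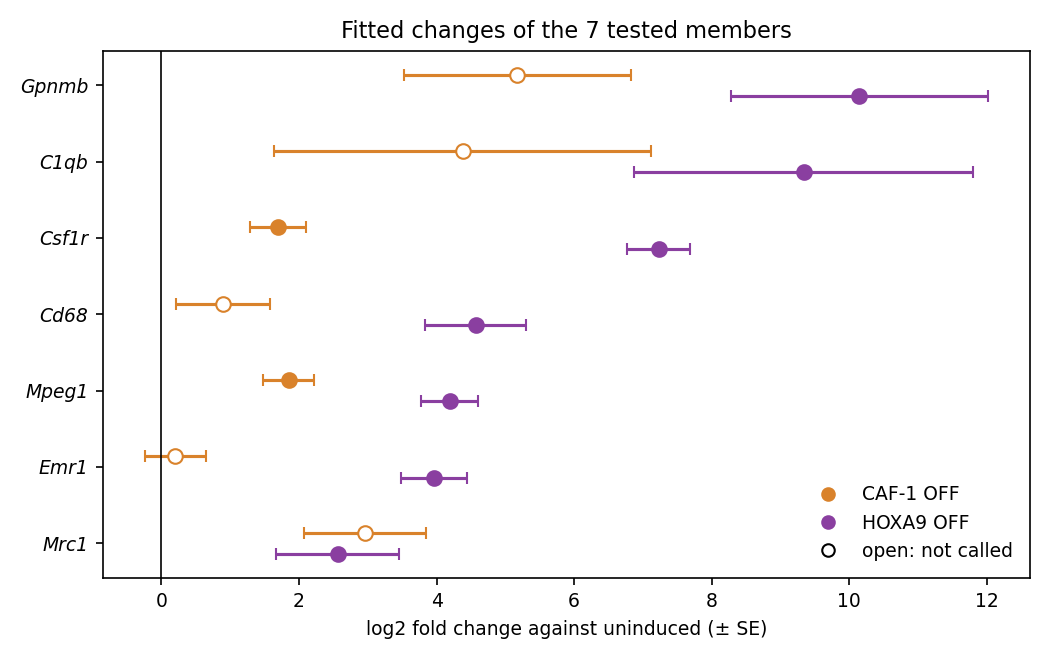
Fitted log2 fold change against uninduced cells for the 7 tested members in CAF-1 OFF (orange) and HOXA9 OFF (purple), with bars of 1 SE and open points where no call was made. All 7 changes in HOXA9 OFF are filled, from 2.56 for Mrc1 to 10.14 for Gpnmb, whereas in CAF-1 OFF Csf1r and Mpeg1 are.

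Withdrawal of estradiol thus raised all 7 tested members, where 25.2% of all tested genes were called higher and 22.1% lower in the same comparison. The median change of the 7 was 4.57 on the log2 scale, beside 0.007 over all tested genes. C1qb passed the low-count filter through the treated groups alone, and C1qa and C1qc did not pass it, so the count of 7 is a description. Csf1r, Emr1 and Mpeg1 held their change without either HOXA9 OFF library: without replicate 2 their log2 fold changes were 6.73, 4.05 and 3.89, and without replicate 1 they were 7.6, 3.87 and 4.44. The changes of Cd68 and Gpnmb also stayed called without replicate 2, but fell to 2.99 and 5.96, and without replicate 1 they were 5.30 and 11.10. These 5 genes were therefore higher in each HOXA9 OFF library than in uninduced cells, and the size of the Cd68 and Gpnmb change was set by which library was used.

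CAF-1 OFF, set against the same 2 uninduced libraries, raised 2 of the 7 tested members, Csf1r and Mpeg1, where 10.5% of tested genes were called higher. Emr1 was the tested member whose CAF-1 OFF and uninduced libraries overlapped. The count of 2 was not firm: it was 0 without uninduced replicate 1, uninduced replicate 2 or CAF-1 OFF replicate 2. It was 5 when only the CAF-1 OFF and uninduced libraries were fitted, with Mrc1 (FDR 0.0164), Gpnmb (FDR 0.00478) and C1qb (FDR 0.0161 by edgeR) added. Since C1qb, with 0 and 4 uninduced counts, passed the low-count filter of that fit through CAF-1 OFF alone, this count is a description. It was also 5 without either of the HOXA9 OFF libraries, whose spread enters the shared estimate.

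The IPTG-treated control gave the same pair of genes. Csf1r (log2 fold change 1.78 ± 0.43 SE, FDR 0.0299 by edgeR) and Mpeg1 (1.82 ± 0.37, FDR 0.019) rose in CAF-1 OFF against it, where 9.56% of genes were called higher. The same 2 CAF-1 OFF libraries enter both comparisons. This count was 0 without either IPTG-treated control library or CAF-1 OFF replicate 2, 1 without CAF-1 OFF replicate 1 or either uninduced library, and 4 without either HOXA9 OFF library.

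Between the treatments, 6 members were lower in CAF-1 OFF than in HOXA9 OFF, where 21.4% of genes were. Csf1r differed by −5.53 ± 0.42 SE (FDR 6.04e-05 by edgeR), Emr1 by −3.76 ± 0.48 (FDR 0.000494), and Mpeg1 by −2.34 ± 0.38 (FDR 0.00151) on the log2 scale. Cd68 differed by −3.67 ± 0.70 (FDR 0.00325) and Gpnmb by −4.97 ± 1.41 (FDR 0.019). C1qb differed by −4.96 ± 1.78 (FDR 0.0459), but its libraries overlapped, and without HOXA9 OFF replicate 2 the sign turned to 2.13.

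The control groups were compared to describe the members under IPTG and time in culture. The vector of the IPTG-treated control is not given, so a difference of vector cannot be told apart from these. Between the IPTG-treated control and uninduced cells 0 of 7 were called, as were 0.0% of all tested genes by edgeR, with 100 genes and 0 of the 7 members at an unadjusted p under 0.05. DESeq2 and edgeR's exact test also called 0 members. The fitted log2 changes of the members were between −0.40 for Gpnmb and 0.29 for Mrc1, and every tested member's libraries overlapped between these groups.

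**Figure D3:**
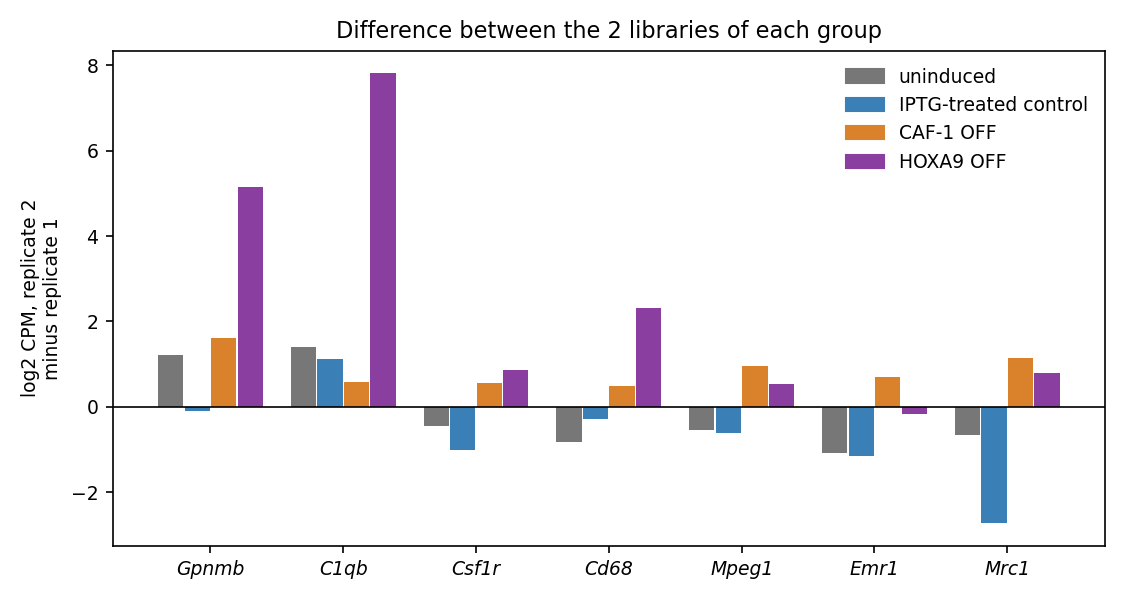
Difference between replicate 2 and replicate 1 in log2 CPM (prior count 2) for the 7 tested members, with 1 bar per group. In HOXA9 OFF the bars of C1qb (7.81) and Gpnmb (5.14) stand far above the rest, that of Emr1 lies just below 0, and all 7 bars are above 0 in CAF-1 OFF.

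The 2 HOXA9 OFF libraries split the members. Replicate 2 exceeded replicate 1 by 7.81 for C1qb, 5.14 for Gpnmb and 2.31 for Cd68 in log2 CPM, ranks 2, 16 and 214 of 13080 tested genes. The differences of Csf1r (0.88), Mrc1 (0.79) and Mpeg1 (0.55) were smaller, and Emr1 was lower in replicate 2 (−0.18, rank 8833). Thus 3 of the 7 tested members were at least 2-fold higher in replicate 2, as were 6.72% of all tested genes.

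Csf1r, Emr1 and Mpeg1 therefore marked both libraries at closer levels, and the C1q chains marked mostly replicate 2. Gpnmb and Cd68 lay above the other groups in both libraries and were far higher in replicate 2. The count of 3 members at least 2-fold higher in replicate 2 is a description, and with 2 libraries the difference could not be tested within HOXA9 OFF.

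For C1qb, Gpnmb and Cd68 the replicates lay closer together in the other groups. In CAF-1 OFF all 7 tested members were higher in replicate 2, by 0.49 for Cd68 to 1.61 for Gpnmb in log2 CPM. Of these, 2 (Mrc1 and Gpnmb) passed 2-fold, as did 3.87% of genes. CAF-1 OFF replicate 2 was also the library with less Chaf1b, 9.72 against 18.7 CPM, and the part of this in the members' levels was not tested. In uninduced cells Csf1r, Mrc1, Emr1, Mpeg1 and Cd68 were lower in replicate 2, and Gpnmb (1.22) and C1qb (1.40 in log2 CPM) were at least 2-fold higher there, as in HOXA9 OFF, against 3.8% of genes. In the IPTG-treated control all but C1qb were lower in replicate 2, and 1 member (C1qb) was at least 2-fold higher, against 4.08% of genes. The C1qb values in these control libraries rest on 0 to 4 counts.

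Over all groups, replicate 2 against replicate 1 gave 0 of 7 members called, with 0.0153% of all genes called by edgeR. Gpnmb (log2 difference 2.94 ± 0.84 SE, FDR 0.277) and C1qb (4.45 ± 1.53, FDR 0.34) had an unadjusted p under 0.05, and DESeq2 also called 0 members. Without either CAF-1 OFF library 4 members were called.

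Levels of different genes were compared per kilobase of annotated exon, in CPM per kilobase. In uninduced cells the order was Mpeg1 (26.0 ± 6.82 SD, n = 2), Emr1 (9.22 ± 4.65), Cd68 (4.73 ± 1.88), Csf1r (0.841 ± 0.183), Gpnmb (0.272 ± 0.166), C1qb (0.0786 ± 0.111), Mrc1 (0.0701 ± 0.0279), C1qc (0.0111 ± 0.0157) and C1qa (0). Emr1 and Cd68 overlapped, as did Gpnmb with C1qb, C1qb with Mrc1 and C1qc with C1qa. In CAF-1 OFF, Mpeg1 (93.4 ± 42.2) again stood alone, and Emr1 (10.6 ± 3.54), Gpnmb (9.93 ± 7.13) and Cd68 (8.78 ± 2.11) overlapped. Gpnmb had moved from below Csf1r (2.72 ± 0.746) to above it. In HOXA9 OFF, Mpeg1 (473 ± 126), Gpnmb (311 ± 416), Emr1 (143 ± 12.4), Csf1r (126 ± 52.5), Cd68 (112 ± 105) and C1qb (55.7 ± 78.2) each overlapped the next in line. C1qc (12.2 ± 17.1), C1qa (2.12 ± 3.00) and Mrc1 (0.417 ± 0.165) had the lowest means and overlapped too, and in replicate 1 C1qc (0.0843) and C1qa (0) lay below Mrc1 (0.301).

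The genes whose log2 CPM was most like that of a member over the 8 libraries differed between members. Genes with a mean of 2 or more in log2 CPM were searched, and Pearson's r is given as a description, since it rests largely on steps between groups. For Mrc1 the CAF-1 OFF and HOXA9 OFF libraries overlapped, and for C1qb HOXA9 OFF replicate 2 stood far above the other libraries. Csf1r was most like Stx7 (r = 0.998), Cpeb2 (0.997) and Klf6 (0.997), and Mpeg1 was most like Dpep2 (0.997), the chemokine receptor gene Ccr1 (0.996) and Plaur (0.994), the urokinase receptor gene. Emr1 was most like Cotl1 (0.998), Rgs2 (0.996) and Epx (0.995). Epx encodes eosinophil peroxidase, and its level was between 1.88 and 4.90 CPM in the uninduced and IPTG-treated control libraries and 421 and 252 CPM in HOXA9 OFF.

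Of the remaining members, Cd68 was much like Nkiras2 (0.993) and Nptn (0.993). Gpnmb was most like Fcgr1 (0.992), the high-affinity IgG receptor gene, Rps6ka4 (0.991) and Atp2b1 (0.989). C1qb was much like Sh3glb1 (0.99) and Plcxd2 (0.976), and Mrc1 was most like Ston2 (0.966), 6720456H20Rik (0.962) and Hist1h1c (0.953). Among the members themselves, r was between 0.567 for Mrc1 with Emr1 and 0.976 for Csf1r with Mpeg1.

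Further genes were taken as lists, whose counts stand beside the 10.5% of tested genes called higher in CAF-1 OFF and the 25.2% in HOXA9 OFF, both against uninduced cells, and the 9.56% in CAF-1 OFF against the IPTG-treated control. The shares called lower against uninduced cells were 3.5% in CAF-1 OFF and 22.1% in HOXA9 OFF. The partners of Csf1r were measured first, as a list of 14 genes for its ligands, its adaptor and the transcription factors of the lineage. In HOXA9 OFF all 11 tested genes rose, with a median log2 change of 2.13 beside 0.007 over all genes. Csf1, a ligand gene, rose from 8.50 and 11.5 CPM to 63.6 and 316 CPM (log2 fold change 4.24, FDR 0.00125 by edgeR), and the second ligand gene, Il34, had at most 1 count in any library. Tyrobp, the DAP12 signalling adaptor, rose by 2.74 (FDR 1.55e-05), Sfpi1, which encodes PU.1, by 2.13 (FDR 6.46e-05), and Irf8 by 2.08 (FDR 0.00124). In CAF-1 OFF, Nr1h3 and Zeb2 of the 11 rose against uninduced cells, and against the IPTG-treated control Zeb2 did, with an FDR of 0.101 for Nr1h3. Tyrobp was lower in CAF-1 OFF, at 82.6 and 62.9 CPM against 113 and 101 CPM in uninduced cells, with an FDR of 0.0303 and a log2 difference of −0.56 that did not reach 1.5-fold, and it was lower by a like amount against the IPTG-treated control (−0.56, FDR 0.0336 by edgeR).

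A list of 25 further core macrophage genes was examined in the same way. In HOXA9 OFF 16 of its 18 tested genes rose and 0 fell, and in CAF-1 OFF 6 rose (Axl, Cd36, Cx3cr1, Fcgr1, Msr1 and Siglec1) and 0 fell. Against the IPTG-treated control, 4 of these 6 rose in CAF-1 OFF, all but Cd36 and Msr1. Trem2, Lpl, Cd36 and C3ar1 had at most 1 count in any control library and passed the low-count filter through the treated groups. So did Siglec1, Msr1 and Ms4a7, which had at most 10 counts in any control library. The 7 untested genes had at most 19 counts in any library, so counts over the tested genes are a description here and in the other lists. Axl, which encodes a receptor that binds apoptotic cells, gave 1.02 and 2.52 CPM before induction, 31.5 and 44.3 CPM after CAF-1 suppression and 20.1 and 90.7 CPM after withdrawal of estradiol. It was called in both treatments (log2 fold changes 4.41, FDR 0.0145, and 4.96, FDR 0.00173), as was the fractalkine receptor gene Cx3cr1 (3.64, FDR 0.00862, and 4.41, FDR 0.000453, by edgeR). Cd14, the endotoxin co-receptor gene, rose by 4.05 in HOXA9 OFF (FDR 0.000348), and Lgmn, a lysosomal protease gene, by 3.40 (FDR 0.0367 by edgeR). The Lgmn libraries of HOXA9 OFF, at 18.1 and 306 CPM, overlapped those of uninduced cells, at 6.99 and 23.7 CPM.

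The 2 tested genes of the list without a call were Apoe (FDR 0.392) and Cd163, a scavenger receptor gene of resident macrophages. Cd163 had 17 to 180 counts in every library, at 3.07 and 7.70 CPM before induction and 0.922 and 4.02 CPM after withdrawal of estradiol (log2 fold change −1.12, FDR 0.213 by edgeR). Of the untested genes, Marco, Timd4 and Pros1 were at 0 in all 8 libraries, and Vsig4 had at most 2 counts in any. The label of macrophage identity was thus met by part of the wider list.

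Part of this list was also higher in replicate 2 of HOXA9 OFF. Its summed level was 1722 CPM in replicate 1 and 3149 CPM in replicate 2, and 12 of the 18 tested genes were at least 2-fold higher in replicate 2, beside 6.72% of all genes. Their median difference was 1.57 in log2 CPM, and Cx3cr1, at 24.8 and 18.5 CPM, was lower in replicate 2. In uninduced cells 3 of the 18 were at least 2-fold higher in replicate 2, and in the IPTG-treated control 6 were. In the controls its sum was between 248 and 265 CPM, and in CAF-1 OFF it was 328 and 390 CPM. Lgmn was at 18.1 CPM in HOXA9 OFF replicate 1 and 306 CPM in replicate 2, and it was also higher in replicate 2 of uninduced cells (6.99 and 23.7 CPM) and of the IPTG-treated control (8.34 and 19.5 CPM).

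Cd68 and Gpnmb are lysosomal, and the list of MiT/TFE transcription factors and lysosomal genes rose with them. In HOXA9 OFF 18 of 19 tested genes rose, all but Acp5, and in CAF-1 OFF 2 did, Grn and Tfeb, to which the comparison with the IPTG-treated control added Mitf. Ctss, the cathepsin S gene, went from 0.89 and 1.80 CPM in uninduced cells to 150 and 452 CPM in HOXA9 OFF (log2 fold change 7.79, FDR 0.000169 by edgeR). Mitf, a transcription factor gene of this family, rose by 3.35 (FDR 0.000137), Ctsb by 3.67 (FDR 0.000714) and Lipa, the lysosomal acid lipase gene, by 3.24 (FDR 0.000275). The summed level was 10000 CPM in HOXA9 OFF replicate 1 and 22140 CPM in replicate 2, with 8 of 19 genes at least 2-fold higher in replicate 2. Their median difference was 0.53 in log2 CPM, and much of the gap between the sums came from the cathepsin genes Ctsd (2458 and 8388 CPM) and Ctsb (1228 and 4431 CPM).

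The partners of C1q in the complement system were a list of 14 genes. Of 12 tested genes, 9 rose and 1 (C2) fell in HOXA9 OFF, and 4 (C3, C5ar1, Itgam and Itgb2) rose in CAF-1 OFF. C3, the central complement component, gave 16.5 and 10.3 CPM before induction, 95.5 and 182 CPM after CAF-1 suppression, and 1855 and 1196 CPM after withdrawal of estradiol. Itgam and Itgb2, which encode the subunits of complement receptor 3, rose by 6.47 (FDR 5.92e-05) and 4.10 (FDR 2.25e-05 by edgeR) in HOXA9 OFF, and Cfp, the properdin gene, by 2.74 (FDR 0.00103). In HOXA9 OFF 0 of these 12 genes were at least 2-fold higher in replicate 2, whereas C1qb was 278 times higher there. C1ra and C1s encode the proteases that form the C1 complex with C1q. C1ra had 45 and 46 counts in HOXA9 OFF, or 2.44 and 2.28 CPM, and rose (log2 fold change 4.35, FDR 0.00241 by edgeR), whereas C1s, with 6 and 2 counts there, was near the limit of detection. With at most 4 counts in any control library, C1ra passed the low-count filter through the treated groups. Serping1, the C1 inhibitor gene, was at 0 in all 8 libraries.

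The gene families of the surface receptors moved in part. Among relatives of Emr1, Cd97 rose in CAF-1 OFF (log2 fold change 1.01, FDR 0.00612) and HOXA9 OFF (2.81, FDR 1.49e-05), Emr4 rose and Eltd1 fell in HOXA9 OFF (−0.97, FDR 0.00238 by edgeR). Of the 3 relatives of Mrc1, Ly75 was tested and rose in CAF-1 OFF (1.31, FDR 0.0402).

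Markers of other blood cells moved beside the members. All 15 neutrophil markers rose in HOXA9 OFF and 9 of them in CAF-1 OFF, with summed levels of 205 to 258 CPM in the control libraries, 1619 and 2707 CPM in CAF-1 OFF, and 10180 and 6893 CPM in HOXA9 OFF. S100a9, S100a8 and Ngp, granule and alarmin genes, rose by 10.67 (FDR 1.19e-05), 9.61 (FDR 1.19e-05) and 10.10 (FDR 8.53e-06 by edgeR). The neutrophil sum was thus lower in HOXA9 OFF replicate 2, the library with more C1q, Gpnmb and Cd68, and 0 of the 15 genes were at least 2-fold higher there. The part of the neutrophil content in the members' levels was not tested.

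Of the 8 monocyte markers, 5 rose in CAF-1 OFF and 4 in HOXA9 OFF against uninduced cells. Against the IPTG-treated control 3 of the 5 rose in CAF-1 OFF (Ly6c2, Ms4a6c and Vcan), while Fn1, which had 11 and 429 counts in CAF-1 OFF, and Ly6c1 were not called. Ly6c2, a gene of inflammatory monocytes, rose by 3.21 in CAF-1 OFF (FDR 0.00543) and by 3.10 in HOXA9 OFF (FDR 0.000469 by edgeR). Ms4a6c rose in both as well, by 1.38 (FDR 0.0193) and 3.95 (FDR 4.51e-05). The summed level was 1412 to 1600 CPM in the controls, 1900 and 2242 CPM in CAF-1 OFF, and 2080 and 3382 CPM in HOXA9 OFF. Most of the sum was F13a1, a coagulation factor gene, at 1486 and 2606 CPM in HOXA9 OFF. Ccr2, a chemokine receptor gene, was not called, with 331 and 522 CPM before induction, 464 and 159 CPM after CAF-1 suppression and 165 and 287 CPM after withdrawal of estradiol (log2 differences −0.45 and −0.92). Of 9 progenitor markers, 6 fell in HOXA9 OFF, among them Flt3 (−5.68, FDR 0.000115), Sox4 (−4.44, FDR 0.000108) and Cd34 (−2.86, FDR 1.67e-05), and 0 fell in CAF-1 OFF, where Elane rose. The progenitor sum was 16790 and 16620 CPM in CAF-1 OFF and 11620 to 15480 CPM in the controls. Much of it was Mpo, the myeloperoxidase gene, at 7749 and 7807 CPM in CAF-1 OFF and 3988 to 6449 CPM in the controls (FDR 0.181 by edgeR against uninduced). Sox4 lay below all controls in CAF-1 OFF, at 57.3 and 36.0 CPM against 79.4 to 114 CPM (FDR 0.0925).

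**Figure D4:**
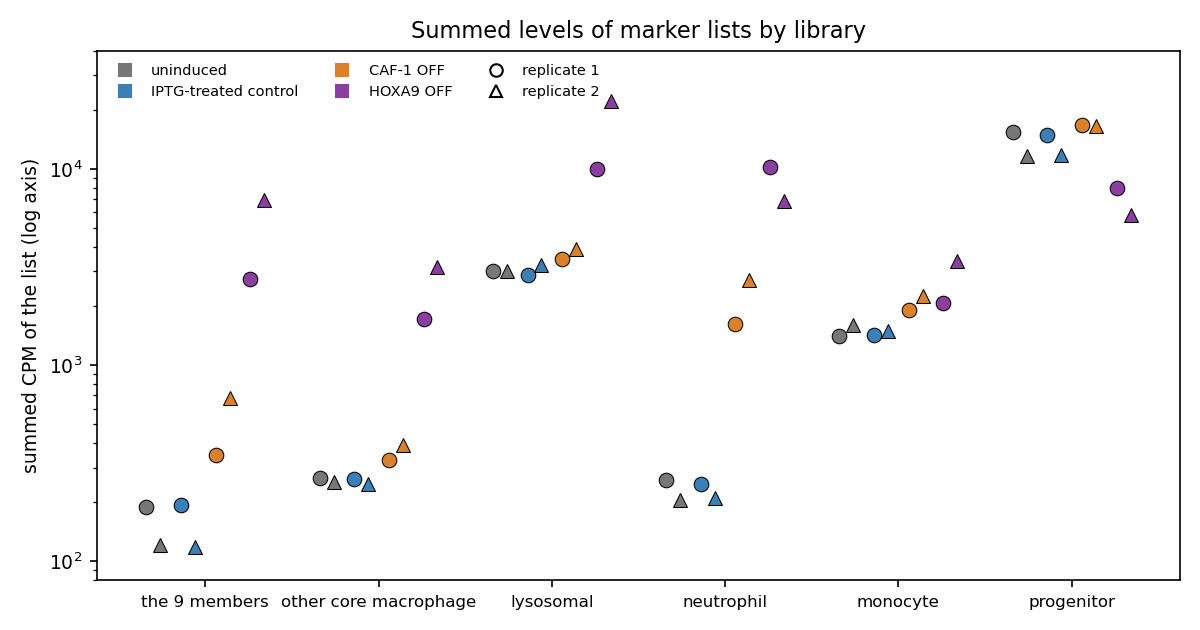
Summed CPM of 6 gene lists in the 8 libraries on a log axis, with circles for replicate 1, triangles for replicate 2 and 1 color per group. In HOXA9 OFF the sums of the 9 members, the other core macrophage genes and the lysosomal genes are higher in replicate 2, and those of the neutrophil and progenitor markers are lower in replicate 2.

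Of the remaining lists, dendritic cell markers had 3 of 10 genes tested. Of these, 2 rose in CAF-1 OFF (Cd74 and H2-Aa) and 3 in HOXA9 OFF, with a summed level of at most 0.935 CPM in the controls, 7.63 and 8.73 CPM in CAF-1 OFF, and 8.52 and 44.9 CPM in HOXA9 OFF. Mast cell and basophil markers had 2 of 6 rise in CAF-1 OFF, Mcpt8 (log2 fold change 2.95, FDR 0.000534) and Cpa3 (2.14, FDR 0.00768). In HOXA9 OFF Mcpt8 fell (−2.26, FDR 2.96e-05 by edgeR) and Hdc rose (1.80, FDR 0.00149). Erythroid and megakaryocyte markers had 4 of 7 rise in each treatment, with sums of 30.1 to 34.0 CPM in the controls, 205 and 232 CPM in CAF-1 OFF and 151 and 151 CPM in HOXA9 OFF. Itga2b and Gp9 were called in both treatments, Pf4 and Epor in CAF-1 OFF, and Gata1 and Ppbp in HOXA9 OFF. In HOXA9 OFF much of the sum was Itga2b (114 and 93.3 CPM), while the platelet chemokine genes Pf4 (1.25 and 20.8 CPM) and Ppbp (0.977 and 15.2 CPM) were far higher in replicate 2. Lymphocyte markers had 2 of 3 rise in CAF-1 OFF, where their sum was 52.3 and 47.3 CPM, and 1 rise and 1 fall in HOXA9 OFF, and against the IPTG-treated control all 3 rose in CAF-1 OFF, while Cd3e, Cd3g and Ncr1 were at 0 in all libraries. Stromal and endothelial markers summed to at most 7.58 CPM in any library, and Col1a1 of the 2 tested rose in both treatments against uninduced cells, with no call in CAF-1 OFF against the IPTG-treated control. The part of these lists in the members' levels was not tested.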

How the data were processed

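The authors sequenced RNA of iGMPs on an Illumina HiSeq after preparation with a directional NEBNext kit. The study's methods name STAR for alignment to mm9 and HTSeq-count for counting. The deposited files hold raw counts by gene symbol, 1 file a library, neither normalized nor pooled. The annotation version and the strand setting are not given in the sources used here. HTSeq's summary rows were kept apart; reads outside genes were 5.3% to 14.6% of uniquely aligned reads, the highest in IPTG-treated control replicate 1.

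Groups and replicate numbers came from the sample labels. Counts were fitted in edgeR 4.0.16 (R 4.3.3), the tool the study's methods name, by the quasi-likelihood method with TMM, filterByExpr by group, all 8 libraries and 1 mean per group, settings chosen here. Tests were adjusted by Benjamini-Hochberg over 13080 genes, and a call needed an FDR under 0.05 and 1.5-fold. The biological coefficient of variation was 18.9%. SEs were derived from the F statistic. Log2 CPM used a prior count of 2, and where a group was at 0 the floor was 3 counts in its smaller library. Exon lengths and mm9 positions came from GENCODE vM1, promoters from RefSeq. The scripts were tested on simulated data, and DESeq2 1.42.0, other scalings, filters and thresholds were tried. The members and lists were chosen with earlier results of these data known. All members were described, with at most 4 called examples of every other list by size of change (mean log2 CPM of at least 2) and, of the 3 genes most correlated with each tested member, those that could be named; a few genes are not reported here.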

Additional observations from a re-analysis of the deposited data

Results flagged for a closer look

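For 4 members the libraries of HOXA9 OFF differed in the opposite direction to those of uninduced cells and of the IPTG-treated control. Replicate 2 minus replicate 1 in log2 CPM was 0.875 for Csf1r in HOXA9 OFF, against −0.437 in uninduced cells and −1.007 in the control. For Mrc1 it was 0.791, against −0.661 and −2.721, and for Mpeg1 it was 0.547, against −0.542 and −0.616. For Cd68 it was 2.307, against −0.816 and −0.274. The Mrc1 differences rest on 12 and 7 counts in uninduced cells and on 14 and 1 in the IPTG-treated control. In CAF-1 OFF the differences of these 4 genes were positive too, at 0.562, 1.144, 0.954 and 0.491. With 2 libraries in each group, this difference between groups was not tested.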

How the results depend on the processing

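The count of members called in HOXA9 OFF against uninduced stayed between 5 and 9 when each library was left out in turn, and that in CAF-1 OFF against HOXA9 OFF stayed within 1.5 times of 6 under each alternative. The counts in CAF-1 OFF, 2 against uninduced and 2 against the IPTG-treated control, moved. Against uninduced the count became 0 at an FDR of 0.01 and 2-fold, 4 with no filter, 4 with the DESeq2 test, 4 with the edgeR exact test, 5 with only the compared groups, and 0 to 5 when each library was left out. Against the IPTG-treated control it became 0 at the stricter threshold, 4 with no filter, 4 with DESeq2, 4 with the exact test, 4 with only the compared groups, and 0 to 4 when each library was left out. In replicate 2 against replicate 1 the count of 0 became 3 with no filter, 1 with only the compared groups and 0 to 4 with each library left out. The exact test was not run there, since it takes no covariate. The cause of these moves was not tested.

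Of 649 log2 changes of single members under the alternatives, 540 kept direction and side of the threshold, 38 passed it, 37 fell short and 34 turned sign. None of the turns was in HOXA9 OFF against uninduced. With each library left out in turn, Emr1 in CAF-1 OFF was between −0.24 and 0.83 against uninduced and between −0.25 and 0.88 against the IPTG-treated control. In CAF-1 OFF against HOXA9 OFF, Mrc1 was between −0.31 and 0.87 and C1qb between −5.96 and 2.13. In the IPTG-treated control against uninduced, where 0 members were called under each alternative, Csf1r was between −0.67 and 0.36, Mrc1 between −2.65 and 1.24, Emr1 between −0.71 and 0.62, Mpeg1 between −0.32 and 0.32, Cd68 between −0.26 and 0.57, Gpnmb between −0.91 and 0.42, and C1qb between −3.87 and 3.42. In replicate 2 against replicate 1, Csf1r was between −0.12 and 0.44, Mrc1 between −0.42 and 0.59, Mpeg1 between −0.20 and 0.33, and Cd68 between −0.18 and 0.98. There Mrc1 was −0.30 with the DESeq2 test, and with only the compared groups Mrc1 was −0.42 and Mpeg1 −0.20.

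The labels do not say what libraries of the same number share, and deviations of same-numbered libraries from their group means correlated between −0.044 (uninduced with CAF-1 OFF) and 0.475 (uninduced with the IPTG-treated control). With the replicate number as a block, the members called in CAF-1 OFF against uninduced became 4, with Mrc1 (FDR 0.0495) and Gpnmb (FDR 0.0157) added, and those against the IPTG-treated control became 3, with Gpnmb (FDR 0.0195) added. The block left 7 in HOXA9 OFF against uninduced and 0 in the IPTG-treated control against uninduced, and gave 5 in CAF-1 OFF against HOXA9 OFF, where C1qb lost its call (FDR 0.126 by edgeR). With 2 libraries a group, precision rests on a spread shared between genes and groups, and counts of 0 to 4 carry the C1q values of most libraries.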

Other observations

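C1qb was near the top of the genes that separated the HOXA9 OFF libraries. The genes around it in that order, named here after their values were seen, were Emp1, Gas6, Bhlhe41, Tnni3k, Mcoln2 and Mmp12. Emp1, which encodes an epithelial membrane protein, was at 0.271 CPM in HOXA9 OFF replicate 1 and 100.2 CPM in replicate 2. In the control libraries it was higher in replicate 2 too, with 0.267 and 4.88 CPM before induction and 0.141 and 4.48 CPM with IPTG alone. All 6 of these genes were higher in replicate 2 of uninduced cells and of the IPTG-treated control as well, whereas in CAF-1 OFF Mmp12 alone of the 6 was. In the control libraries Tnni3k was at 0.0707 to 0.30 CPM, near the limit of detection. Mmp12, the macrophage elastase gene, gave 15.2 and 29.0 CPM before induction, 109.7 and 238 CPM after CAF-1 suppression, and 3.31 and 289.5 CPM after withdrawal of estradiol. Gas6, the ligand of the receptor encoded by Axl, gave 34.4 and 56.4, 148 and 58.3, and 0.597 and 116 CPM in the same order. For Mmp12 and Gas6, replicate 1 of HOXA9 OFF was thus below uninduced cells and replicate 2 above them.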
